A study of Homo sapiens with 6 samples.

Results

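The genes described here encode the proteins of the small (40S) ribosomal subunit. They were taken from the count table by symbol, as the RPS genes, RPSA and FAU, without the Y-linked copies of RPS4 and the RPS6 kinases. The rule found 33 of the 26364 genes in the table, of which 31 passed the filter on low counts and were tested among 8070 genes. The 33 comprise 14 proteins of the subunit's head, 18 of its body and platform, and RPS27L, a paralogue of RPS27. RACK1, listed under its older symbol GNB2L1, is also a protein of the head but lies outside the rule.

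All 6 libraries came from HEK293T, a transformed human embryonic kidney line, treated with 200 nM okadaic acid for 3 h, and no untreated cells were sequenced. Okadaic acid blocks the phosphatases that act on phosphorylated UPF1 (p-UPF1), the RNA helicase of nonsense-mediated mRNA decay (NMD). The 3 libraries titled pUPF1 (replicates 3, 6 and 9) followed an immunoprecipitation (IP) with an antibody against p-UPF1, and the control libraries, replicates 1, 4 and 7, bear the title pre-IP. Their antibody entry is rabbit IgG, so the control may be RNA taken before the IP or RNA of a mock IP. The labels name no separate cultures, and every p-value therefore reflects only how these libraries vary, which may be technical. A count is a sequenced fragment of an mRNA and not an intact mRNA.

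Each 40S subunit carries one copy of nearly every one of these proteins around the 18S rRNA, and the subunit binds mRNA, scans for the start codon and holds the decoding site. The mRNAs are short, abundant and heavily translated. Most begin with a C followed by a run of pyrimidines, the terminal oligopyrimidine (TOP) tract, through which growth signals control their translation. UPF1 binds RNA broadly and is removed from coding sequence by translating ribosomes, while its phosphorylation marks mRNAs on which NMD has begun. The comparison asks which of these mRNAs were recovered with p-UPF1 more or less than in the control.

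Start-site sequences are shown first, since the TOP tract is the feature for which this family is known. RefSeq promoters (GRCh38.p14) were matched by symbol for 26 of the 33 genes. The other 7 had no entry. A C followed by at least 4 bases that are each C or T stood at the annotated start of 18 of the 26 (69.2%), against 4.04% of all 27305 promoters. Within 5 bases of the start, 20 of the 26 (76.9%) had such a run, against 21.1% of all promoters. Large subunit protein genes had similar shares, with 26 of 42 (61.9%) at the start and 32 of 42 (76.2%) within 5 bases. The windows below run from 10 bases before the annotated start to 20 bases from the start on, 5′ to 3′. A run is in capitals only where it begins within 5 bases of the start. They belong to some of the genes towards both ends of the change described further on, to RPS16, which was not called, and to the RPS27 pair.
RPS12: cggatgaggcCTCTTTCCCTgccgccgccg
RPS23: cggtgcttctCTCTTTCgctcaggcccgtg
RPS13: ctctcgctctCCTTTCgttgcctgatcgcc
RPS21: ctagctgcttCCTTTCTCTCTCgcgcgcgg
RPS24: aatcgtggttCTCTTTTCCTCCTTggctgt
RPS16: ccctagctttCCTTTTCCggttgcggcgcc
RPS15: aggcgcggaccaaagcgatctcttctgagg
RPS4X: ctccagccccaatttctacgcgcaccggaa
RPS27: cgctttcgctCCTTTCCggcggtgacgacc
RPS27L: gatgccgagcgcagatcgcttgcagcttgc

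In GRCh38.p14 these windows lie at chr6:132814559-132814588 (RPS12, plus strand), chr5:82278335-82278364 (RPS23, minus), chr11:17077648-17077677 (RPS13, minus), chr20:62387093-62387122 (RPS21, plus) and chr10:78033853-78033882 (RPS24, plus). Those of RPS16, RPS15 and RPS4X lie at chr19:39435930-39435959 (minus), chr19:1438386-1438415 (plus) and chrX:72277229-72277258 (minus). The RPS27 and RPS27L windows lie at chr1:153990752-153990781 (plus) and chr15:63157458-63157487 (minus). The counts were made on hg19, and no coordinate was carried between the builds. A run was present both in RPS12, the most depleted mRNA, and in RPS24, whose fold change was nearest to 0. It was absent near the annotated start of RPS15 and RPS4X, which were not called, and of RPS27L, which fell. A window without capitals says only that no run begins within 5 bases of the annotated start, which may differ from the start used in these cells.

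Libraries held 600244 to 1179369 counts in pre-IP against 905926 to 2057647 in p-UPF1 IP. Small structured RNAs, chiefly snoRNAs, took 63.2% to 75.2% of counts in pre-IP against 24.1% to 43.1% in p-UPF1 IP. The scale on which mRNAs are compared therefore matters throughout. Levels are given as CPM, the count of a gene relative to the library's total over the tested genes multiplied by its trimmed-mean (TMM) factor from edgeR. The fit with library totals alone uses the same totals without the factor. On the TMM scale the median log2 fold change of all 8070 tested genes was 0.10, and with library totals alone it was 1.63. VIM, KRT8, KRT18, NEFM and LIN28B, genes known to be expressed in HEK293T, were among the tested genes. The filter also admits genes counted mainly in either group alone, and KRT8 had only 7, 4 and 0 counts in pre-IP. KRT18 had 31, 6 and 0 counts there, LIN28B had 29, 0 and 14, and PAX2 had 0 in every pre-IP library. Of 7 markers of other cell types, none passed the filter, and PTPRC, CD3E and KRT14 were at 0 in every library.

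Small subunit protein mRNAs were lower in p-UPF1 IP than most genes, and unevenly so. On the TMM scale 23 of the 31 fell and 0 rose (edgeR quasi-likelihood F-test, Benjamini-Hochberg 0.05 over 8070 genes), against 10.9% of all tested genes called lower and 8.81% called higher. The 0 is also what DESeq2 and limma-voom gave, and no member was above 0 at an unadjusted p under 0.05. Their median log2 fold change was -1.45, with a range from -3.50 (RPS12) to 0.01 (RPS24). In 24 of the 31 every p-UPF1 IP library lay below every pre-IP library on that scale, which 17.7% of all tested genes did. With library totals alone the same mRNAs split into 6 lower and 5 higher (1.93% and 60.4% of all tested genes) around a median of 0.13, so the fall of most members is relative to other mRNAs. The values compare RNA recovered in p-UPF1 IP with RNA in the control and do not measure how much of an mRNA the cells held.

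**Figure D1:**
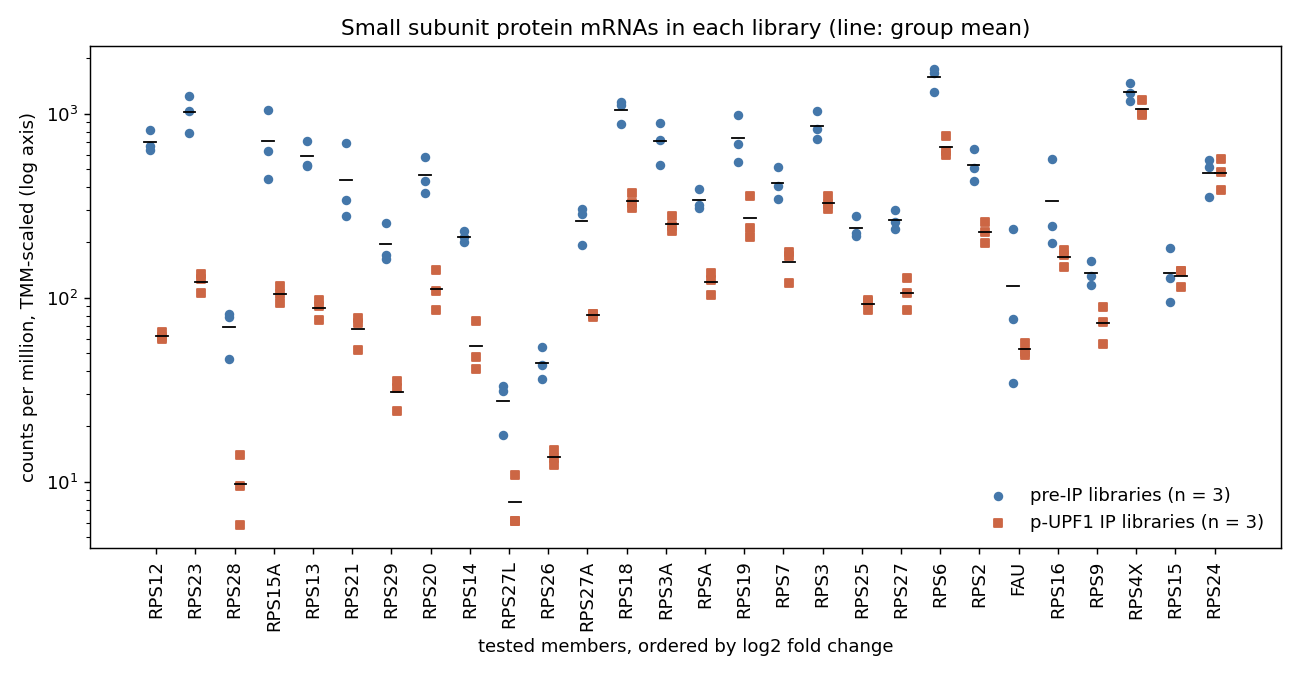
TMM-scaled CPM (log axis) of the 28 tested members reported by name in each library, ordered by log2 fold change, with circles for pre-IP, squares for p-UPF1 IP and a line at each group mean. RPS12 at the left lies between 637 and 813 in pre-IP and between 59.9 and 65.5 in p-UPF1 IP, while the groups of RPS24 at the right overlap. With library totals alone 15 of these 28 are positive, where 687 of all 8070 tested genes are below 0.

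Among proteins of the head, 9 of 12 tested mRNAs fell and 0 rose (10.9% and 8.81% of all tested genes). Their median was -1.54. On library totals the head split into 2 lower and 2 higher (1.93% and 60.4% of all tested genes), around a median of 0.03. RPS12, a protein of the beak of the head, had 637, 813 and 665 CPM in the pre-IP libraries and 59.9, 65.5 and 61.5 in p-UPF1 IP. The groups were far apart and the p-UPF1 IP libraries nearly alike. RPS12 fell by 3.50 (SE 0.33, adjusted p = 3.04e-06). With library totals alone it was -1.92 (adjusted p = 0.000137). RPS28, a small protein near the mRNA exit, had 81.9, 78.8 and 46.7 CPM in pre-IP against 9.47, 5.82 and 14.0 in p-UPF1 IP, on 16 to 64 counts per library. Its groups did not overlap, and it fell by 2.84 (SE 0.44, adjusted p = 0.000346). By library totals alone it was at -1.24 and not called (adjusted p = 0.0539).

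RPS29, a zinc-binding protein of the head, fell by 2.66 and RPS20, which lies at the mRNA entry side, fell by 2.03. RPS27A, which is made as a fusion with ubiquitin, fell by 1.69. RPS18 was the head gene with the most counts, with 1151, 1110 and 881 CPM in pre-IP against 308, 329 and 373 in p-UPF1 IP. Its groups did not overlap, and it fell by 1.64 (SE 0.35, adjusted p = 0.00319), which became -0.06 with library totals alone (adjusted p = 0.885). RPS19, the gene most often mutated in Diamond-Blackfan anaemia, fell by 1.45, RPS3, a protein of the mRNA entry channel, fell by 1.39, and RPS25, which some viral internal ribosome entry sites need, fell by 1.37. These last 3 had positive log2 fold changes with library totals alone (0.13, 0.21 and 0.18). Leaving out p-UPF1 IP replicate 3 ended the calls of RPS3 and RPS19 (adjusted p = 0.058 and 0.0603).

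RPS15 and RPS16 were not called. RPS15, a protein whose tail reaches towards the A site, had 187, 129 and 95.0 CPM in pre-IP against 141, 139 and 114 in p-UPF1 IP. The groups overlapped, at a value of -0.07 (SE 0.30, adjusted p = 0.897) against 1.45 by library totals alone (adjusted p = 0.00274). RPS16, whose tail touches the P-site tRNA, had -0.997 (adjusted p = 0.0625) and passed in 3 of the 18 alternative fits, one of them without pre-IP replicate 7 (-1.24, adjusted p = 0.0307). Without pre-IP replicate 4 it was at -0.38 (adjusted p = 0.385).

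Among body and platform proteins, 13 of 18 tested mRNAs fell and 0 rose (10.9% and 8.81% of all tested genes). Their median was -1.37. On library totals this group split into 4 lower and 3 higher (1.93% and 60.4% of all tested genes), around a median of 0.21. RPS23, which reaches into the decoding centre, had 1032, 1242 and 785 CPM in pre-IP against 134, 106 and 127 in p-UPF1 IP. Every pre-IP library was several times above every p-UPF1 IP library, and RPS23 fell by 3.06 (SE 0.36, adjusted p = 2.63e-05), or by 1.46 with library totals alone (adjusted p = 0.00152). RPS15A, an rRNA-binding protein of the body, had 631, 1053 and 442 CPM in pre-IP against 105, 94.3 and 116 in p-UPF1 IP. It fell by 2.74 (SE 0.37, adjusted p = 0.000104), with pre-IP replicate 4 the highest of its libraries.

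RPS13, another rRNA-binding protein of the body, had 522, 713 and 525 CPM in pre-IP against 97.43, 75.35 and 90.04 in p-UPF1 IP. It fell by 2.74 (SE 0.32, adjusted p = 2.6e-05) without overlap. RPS21 had 338, 691 and 277 CPM in pre-IP against 51.9, 73.2 and 77.7 in p-UPF1 IP, and it fell by 2.67 (SE 0.37, adjusted p = 0.000129). RPS12, RPS13, RPS15A and RPS23 were called lower in the reported fit and in each of the 18 alternatives, with highest adjusted p values of 0.000376, 0.00668, 0.0385 and 0.00152. RPS21 was called lower in all but the fit without the transcript length trend (-0.53, adjusted p = 0.346).

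The remaining falls in the body were smaller. RPS14, a platform protein whose loss is linked to the 5q- syndrome, fell by 1.98, RPS26, which contacts mRNA at the exit channel, fell by 1.71, and RPS3A fell by 1.51. RPSA, also known as the laminin receptor, fell by 1.46, RPS7 fell by 1.43 and RPS2, a protein of the mRNA entry, fell by 1.21. With library totals alone RPS14 and RPS26 stayed negative (-0.45 and -0.18), whereas RPS3A, RPSA, RPS7 and RPS2 turned positive (0.08, 0.12, 0.17 and 0.40). Leaving out p-UPF1 IP replicate 9 ended the call of RPS26 (adjusted p = 0.0525), and RPS2 was not called without either of p-UPF1 IP replicates 3 and 6 (highest adjusted p = 0.0649).

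RPS6, the target of the S6 kinases, had 1670, 1755 and 1306 CPM in pre-IP against 754, 593 and 630 in p-UPF1 IP. Its groups did not overlap, and it fell by 1.26 (SE 0.37, adjusted p = 0.0249), against 0.32 by library totals alone (adjusted p = 0.419). The call was lost when any of pre-IP replicate 1 and p-UPF1 IP replicates 3 and 6 was left out (highest adjusted p = 0.0902). RPS9, a protein of the mRNA entry channel, had 132, 158 and 118 CPM in pre-IP against 56.2, 89.6 and 73.8 in p-UPF1 IP. It fell by 0.88 (SE 0.30, adjusted p = 0.0471) without overlap, but the call was lost without any one of the 6 libraries (highest adjusted p = 0.216) and the value was 0.68 with library totals alone.

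RPS24 and RPS4X were body genes that were not called. RPS24, a Diamond-Blackfan anaemia gene, had 559, 512 and 354 CPM in pre-IP against 566, 386 and 480 in p-UPF1 IP (log2 fold change 0.01, SE 0.33, adjusted p = 0.99). RPS4X, the X-linked copy of RPS4, had 1300, 1472 and 1172 CPM in pre-IP against 980, 1013 and 1194 in p-UPF1 IP (-0.31, SE 0.37, adjusted p = 0.6). The groups of both overlapped on this scale, and with library totals alone they were higher in p-UPF1 IP (1.58 and 1.29, adjusted p = 0.00127 and 0.0046).

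FAU, which encodes a ubiquitin-like protein fused to a ribosomal protein, was not called either, at -1.05 (adjusted p = 0.124). Its pre-IP libraries spread from 34.6 to 236 CPM, and without pre-IP replicate 7, the lowest, it passed at -1.47, whereas without pre-IP replicate 4 it was at -0.075.

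**Figure D2:**
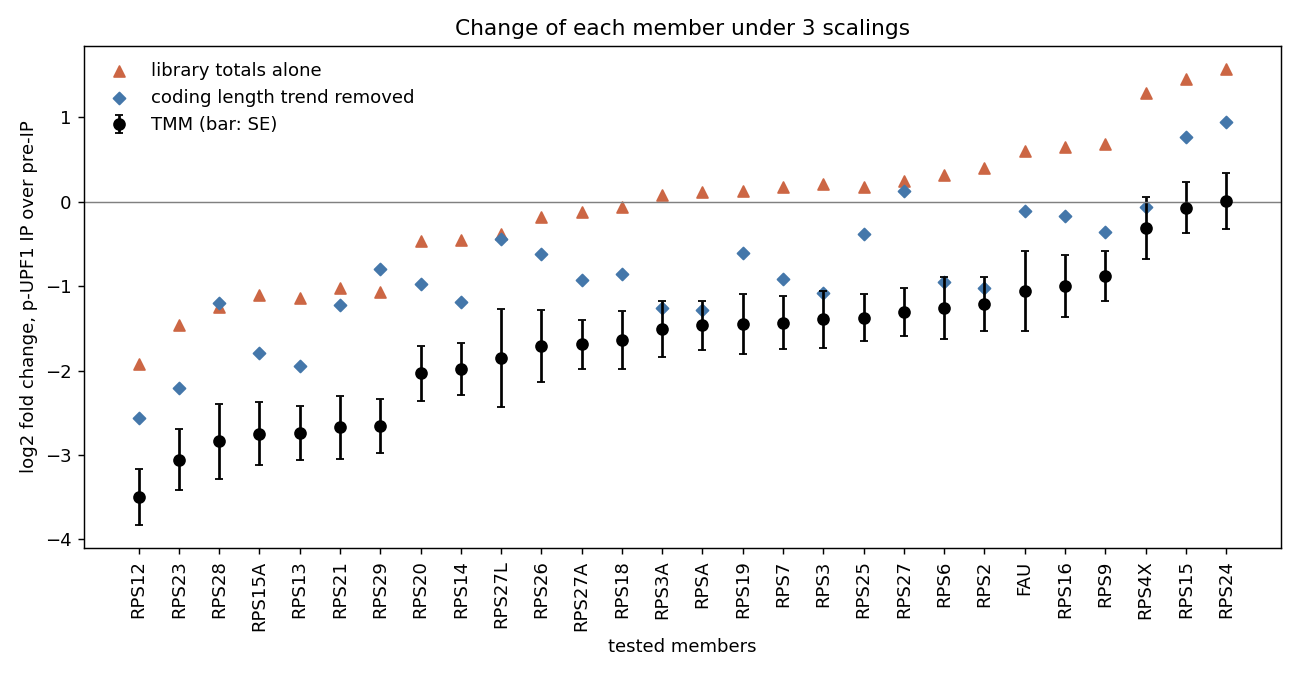
Log2 fold change of the 28 tested members reported by name, p-UPF1 IP over pre-IP, on the TMM scale (circles, bars are SE), with library totals alone (triangles) and with the trend of coding length removed (diamonds). RPS12, RPS23, RPS13 and RPS15A stay below 0 on all 3, whereas RPS24, RPS15 and RPS4X lie above 1 with library totals alone.

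Both genes of the RPS27 pair fell. RPS27, a zinc-finger protein, had 260, 301 and 235 CPM in pre-IP against 128, 107 and 85.6 in p-UPF1 IP, and it fell by 1.30 (SE 0.29, adjusted p = 0.00443), or was at 0.25 with library totals alone. RPS27L, which p53 can induce, had 33.3, 17.9 and 31.1 CPM in pre-IP against 6.11, 10.9 and 6.15 in p-UPF1 IP, on 5 to 30 counts per library. It fell by 1.86 (SE 0.58, adjusted p = 0.0325) without overlap, and the call was lost without any library but pre-IP replicate 4 (highest adjusted p = 0.142). The ratio of RPS27 to RPS27L counts was 7.81, 16.8 and 7.56 in pre-IP against 21.0, 9.77 and 13.9 in p-UPF1 IP, so the groups overlapped. The coding sequences, 255 nt each, are 78.0% identical in GENCODE 29, with no identical run above 20 nt, so a longer read differs between them.

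RPS10, which is ubiquitinated on stalled ribosomes, was too thinly counted to be tested. It had 20, 8 and 4 counts in pre-IP against 9, 15 and 8 in p-UPF1 IP. Of the 25-base words in its coding sequence, 0% occurred in no transcript of another GENCODE gene, pseudogenes and read-through genes included. The table also has a row for the read-through gene RPS10-NUDT3, with 0 counts. RPS3A, RPS26, RPS27 and RPS28 likewise had 0% unique words, so reads of these 5 genes depend most on how shared matches were counted, which the sources used here do not state. Some of them were nonetheless well counted, as RPS3A with 250 to 761 counts per library. Across the 31 tested members the share of unique words (0% to 78.8%) had a Pearson r of 0.06 with the log2 fold change and of -0.001 with mean log2 CPM, as a description over genes that share libraries. The 11 rows for RPS pseudogenes held 40 counts in the pre-IP libraries and 34 in the p-UPF1 IP libraries, where the members held 24804 and 51478.

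Because every library is scaled by a single factor, the makeup of the small subunit counts within a library does not depend on the scaling. RPS24 took 3.60%, 2.64% and 2.82% of the members' counts in pre-IP against 8.51%, 5.95% and 7.21% in p-UPF1 IP, a 2.39-fold larger mean. RPS15 went from 0.875% ± 0.288 (SD, n = 3) to 1.99% ± 0.244, and RPS4X from 8.44% ± 0.873 to 16.1% ± 1.63. In these 3 genes every p-UPF1 IP library was above every pre-IP library.

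At the other end RPS12 took 4.10%, 4.20% and 5.30% of the members' counts in pre-IP against 0.901%, 1.01% and 0.923% in p-UPF1 IP, a mean 4.80-fold lower. RPS23 went from 6.44% ± 0.200 to 1.85% ± 0.201, RPS13 from 3.74% ± 0.416 to 1.33% ± 0.153 and RPS28 from 0.435% ± 0.0816 to 0.147% ± 0.0601. The groups also did not overlap for RPS15A, RPS21, RPS29, RPS20, RPS27A and RPS18. Over all 33 members the part was lower without overlap in 10 and higher in 5, of which 3 are named above. A part is defined only for members, so no share over all genes can stand beside these counts. On the TMM scale, a different measure, 17.7% of all tested genes were lower without overlap and 21.9% were higher. A makeup sums to a fixed total, so the larger parts of some members entail smaller parts of others. RPS6, at 10.1% ± 0.898 and 9.99% ± 1.18, kept the same part within its spread.

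**Figure D3:**
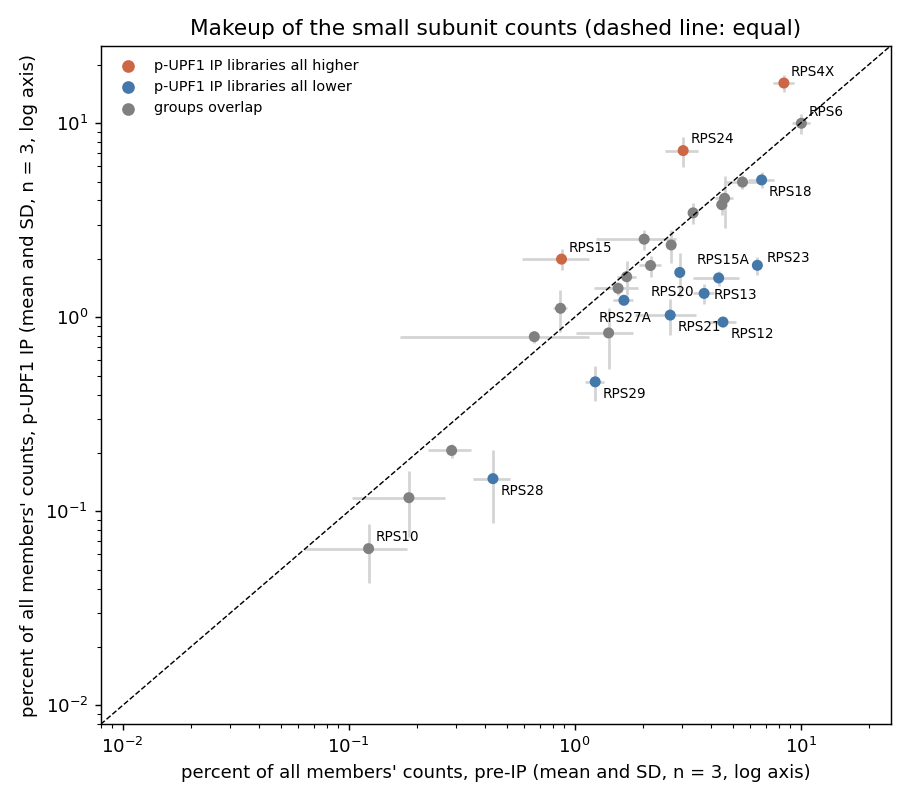
Percent of all members' counts taken by each of the 29 genes reported by name in pre-IP (x axis) and p-UPF1 IP (y axis), as means with SD over 3 libraries on log axes, with the dashed line at equal parts. RPS4X, RPS24 and RPS15 lie above the line and RPS12, RPS23, RPS13 and 7 others below it, each without overlap between the groups, while RPS6 lies on it.

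The small subunit mRNAs were also compared as a pool. The members held 1.03%, 0.901% and 0.768% of all counts in pre-IP against 1.06%, 0.967% and 1.32% in p-UPF1 IP (exact permutation test, two-sided, p = 0.2, Benjamini-Hochberg 0.267 over 4 such tests), so the groups overlapped. With the small structured RNAs left out of the total this ratio turned from 1.24-fold higher to 0.59 times the pre-IP share (exact p = 0.1). As a part of all cytosolic ribosomal protein counts, the small subunit took 43.2%, 40.6% and 43.6% in pre-IP against 37.1%, 37.3% and 38.0% in p-UPF1 IP. These did not overlap (exact p = 0.1, Benjamini-Hochberg 0.2, where 3 libraries against 3 cannot give less than 0.1). Of 47 large subunit mRNAs tested, 22 fell and 0 rose (10.9% and 8.81% of all tested genes), with a median log2 fold change of -0.90. With library totals alone 6 were lower and 21 higher (1.93% and 60.4% of all tested genes), around a median of 0.69.

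Head genes took 34.3%, 34.3% and 35.5% of head and body counts in pre-IP against 26.7%, 31.4% and 28.3% in p-UPF1 IP, without overlap (exact p = 0.1, Benjamini-Hochberg 0.2). With the 9 snoRNA host genes left out, RPS12 of the head and RPSA of the body among them, the ratio of means went from 0.83 to 0.953 (exact p = 0.5).

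**Figure D4:**
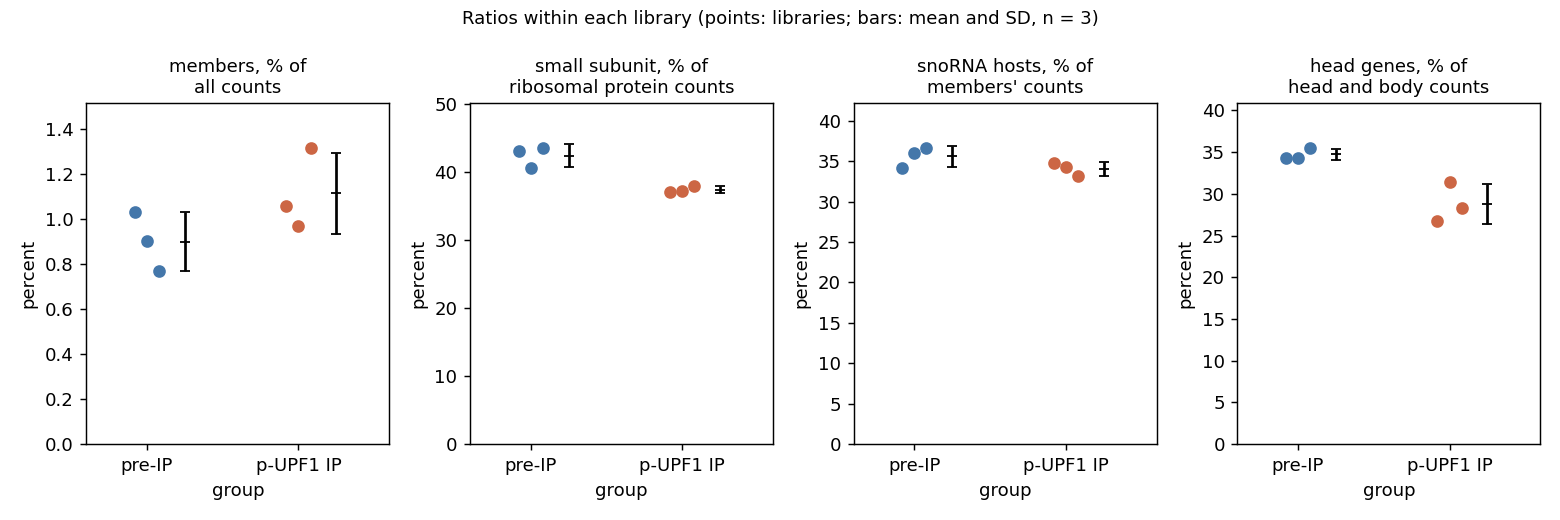
Percentages within each library, with points for the 3 libraries of each group and bars for mean and SD. From left to right they are the members in all counts, the small subunit in ribosomal protein counts (42.5% and 37.4% on average), snoRNA hosts in the members' counts and head genes in head and body counts (34.7% and 28.8%); only the small subunit and head panels show groups that do not overlap.

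Of the members, 9 carry snoRNAs in their introns, which makes them hosts of the RNAs that guide rRNA modification, among them RPSA, RPS2, RPS3, RPS3A, RPS12, RPS13 and RPS20. Of these 9 mRNAs 7 fell (median -1.46), and of the 22 tested members without a snoRNA 16 fell (median -1.44). Over all tested genes 10.9% fell. Hosts took 35.6% ± 1.30 of the members' counts in pre-IP against 34.1% ± 0.84 in p-UPF1 IP (exact p = 0.3, Benjamini-Hochberg 0.3). For 8 of the 9, though not RPS12, a snoRNA lies on an annotated exon of some transcript in GENCODE 29, so snoRNA fragments could be counted for the host there. How much they added was not tested.

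GENCODE 29 places 19 snoRNAs inside these genes, of which 16 matched rows of the table by symbol and 15 were tested. Of the 15, 12 fell and 0 rose, against 10.9% and 8.81% of all tested genes. In RPSA the host fell by 1.46 and its snoRNAs SNORA62 and SNORA6 fell too (-2.22 and -1.54), as did SNORD15A and SNORD15B (-2.87 and -1.77) in RPS3. In RPS12 the host fell by 3.50, SNORD101 fell by 3.64, and SNORA33 and SNORD100 had -1.64 and -0.999 (adjusted p = 0.0563 and 0.19). SNORA10 of RPS2 had -1.56 (adjusted p = 0.111) beside a fall of 1.21 in its host. Other snoRNAs called lower lie in the 2 hosts that were not called. Small structured RNAs as a whole also took a smaller part of counts in p-UPF1 IP. Whether the 15 differ from other snoRNAs was not tested. With library totals alone 12 of the 15 snoRNAs were still below 0, as were 687 of all 8070 tested genes. Not all of the 12 were called lower on that scale. SNORD101 was at -2.15 (adjusted p = 0.00022), whereas SNORA33 was at -0.06 (adjusted p = 0.898).

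Length was a further property that the member rule did not use. The tested members have short coding sequences, with a median of 441 nt and a range from 171 to 888, against 1506 nt over the tested genes with a known length. Across the 31 members the log2 fold change had a Pearson r of 0.47 and a Spearman rho of 0.48 with log2 coding length. Over 7437 other tested genes these were 0.44 and 0.45. The points share the same 6 libraries, so both are descriptions. RPS29, RPS28 and RPS21, with 171, 210 and 252 nt, were among the 7 lowest. The next shortest, RPS27L and RPS27 with 255 nt each, ranked 10 and 20 from the lowest of the 31. With transcript length in place of coding length the members' r was -0.02 and rho 0.09, where RPS27L (6434 nt) and RPS23 (3437 nt) had the longest transcripts. For the GC content of the coding sequence r was 0.25.

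Members of nearly equal length differed widely. RPS24 (402 nt) and RPS12 (399 nt) stood at a count ratio of 0.878, 0.63 and 0.532 in the pre-IP libraries and of 9.45, 5.88 and 7.81 in p-UPF1 IP. RPS15 (438 nt) and RPS23 (432 nt) stood at 0.181, 0.104 and 0.121 in pre-IP against 1.05, 1.32 and 0.899 in p-UPF1 IP. RPS4X (792 nt) to RPS3A (795 nt) went from 1.81, 1.64 and 2.22 to 4.26, 3.66 and 4.88. None of these ratios overlapped between groups. The pairs were chosen after their values were seen, so they are given without a test.

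Removing a trend with length from each library reduced the number of calls. With the trend of transcript length removed 6 members fell (RPS12, RPS23, RPS28, RPS15A, RPS13 and RPS27L) and 2 rose (RPS15, 1.59, adjusted p = 0.00258, and RPS24, 1.39, adjusted p = 0.0101), around a median of -0.34. In that fit 10.6% of all tested genes were lower and 4.67% higher. The result depends on the transcript chosen for each gene. RPS27L, RPS23 and RPS28 had transcripts of 6434, 3437 and 1326 nt, against a median of 705 nt over the tested members. With the trend of coding length removed, an alternative chosen after seeing the data, 11 fell and 0 rose around a median of -0.86 (8.95% and 4.23% of all tested genes). The 11 were RPS12, RPS23, RPS13, RPS15A, RPSA, RPS3A, RPS21, RPS14, RPS3, RPS2 and RPS27A.

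**Figure D5:**
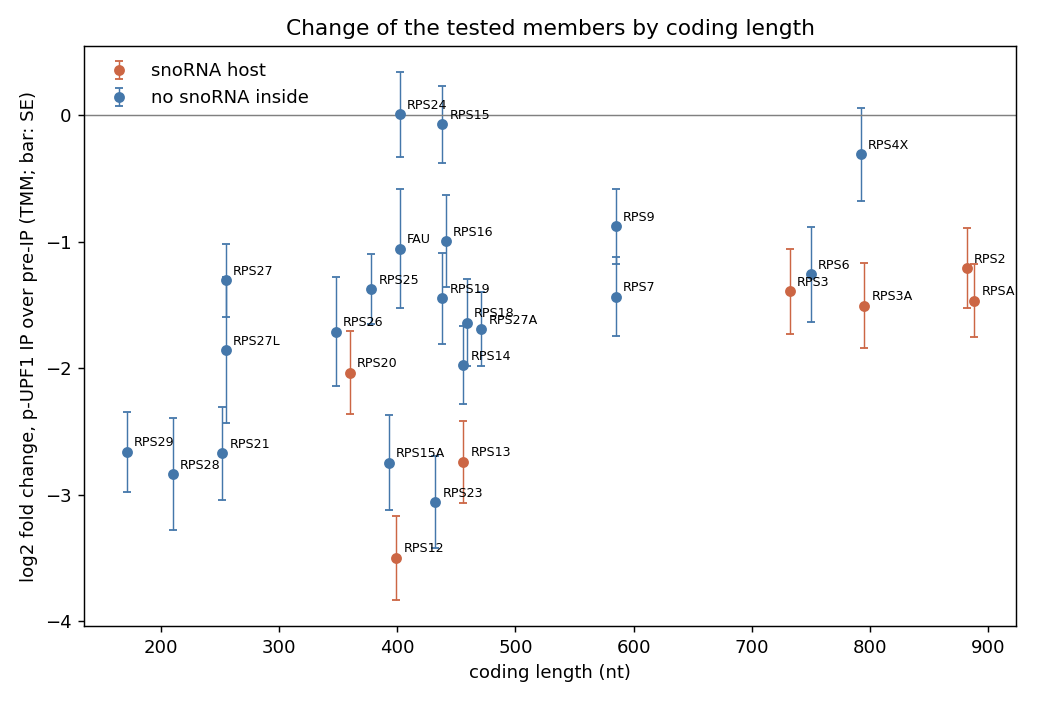
Log2 fold change on the TMM scale (bars are SE) against coding length in nt for the 28 tested members reported by name, with snoRNA hosts in orange and the others in blue. The shortest coding sequences lie between -2.84 and -1.30, and at 399 to 402 nt the values run from -3.50 (RPS12) to 0.01 (RPS24). With library totals alone 15 of the 28 would lie above 0, where 687 of all 8070 tested genes lie below 0.

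The members were also split by their start-site runs. Of 19 tested members with a pyrimidine run within 5 bases of the start 16 fell (median -1.45), and of 6 without one 4 fell (median -1.70). Outside the ribosomal proteins, of 1330 tested genes with such a run 109 fell and 120 rose (median 0.15). Of 4752 without one 333 fell and 459 rose (median 0.17). These counts and medians are descriptions, and no difference between the sets was tested.

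Levels per length differed widely among the members, and their order differed between the groups. In pre-IP, RPS23, RPS18 and RPS6 had the highest mean TMM-scaled CPM per kb of coding sequence (2361, 2283 and 2103), followed by RPS15A (1803), RPS12 (1767) and RPS21 (1727). RPS4X stood at 1659 and RPS24 at 1182 there. In p-UPF1 IP, RPS4X had the highest (1341), and RPS24 (1187), RPS6 (879) and RPS18 (733) came above RPS23 (283), RPS21 (268), RPS15A (268) and RPS12 (156). The lowest tested members were RPS27L and RPS26 in both groups (pre-IP 107.5 and 127, p-UPF1 IP 30.3 and 39.1). Differences between neighbours in these orders were not tested. Across members the log2 fold change had a Pearson r of 0.20 with mean log2 CPM.

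RACK1 (GNB2L1), the scaffold protein on the head, was not called. It had 782, 1035 and 795 CPM in pre-IP against 725, 863 and 988 in p-UPF1 IP, with overlapping groups (log2 fold change -0.02, SE 0.35, adjusted p = 0.977). By library totals alone it was 1.59 (adjusted p = 0.00101). Its value lay near those of RPS24 and RPS15, and its difference from the members was not tested.

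The factors that assemble the small subunit are not part of it and have longer coding sequences, with a median of 1794 nt. Of 41 tested, 5 rose and 3 fell, against 8.81% and 10.9% of all tested genes, so the shares called were near those of all genes. Their median log2 fold change was 0.10, as over all tested genes. By library totals alone 27 were higher and 0 lower, against 60.4% and 1.93% of all tested genes, around a median of 1.63 that all tested genes share. DHX37, NOL6 and WDR46 were 3 of the 5 called higher. They held at most 7 counts in any pre-IP library and passed the filter only through the p-UPF1 IP libraries, so nothing is read from their calls.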

How the data were processed

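RNA fragments from 3 pre-IP and 3 p-UPF1 IP libraries of HEK293T cells were counted per gene. The deposited table holds whole-number counts, 1 column per library and not normalized, made on hg19 with featureCounts (Subread 1.5.0p3) after STAR 2.5.2b and cutadapt 1.15, per the submitters' processing notes. Of the annotation, strand setting and treatment of shared reads, nothing is given in the sources used here.

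The counts were fitted for the whole table with edgeR 4.0.16 in R 4.3.3 (filterByExpr, minimum count 10, TMM, quasi-likelihood F-test, Benjamini-Hochberg 0.05), after a check on simulated data. The SE is the log2 fold change divided by the square root of F. Shares were compared by exact permutation over libraries, two-sided. The alternatives used library totals alone, RLE or upper-quartile scaling, no filter, a minimum count of 30, DESeq2 1.42.0, limma-voom 3.58.1, robust fits, gene classes left out, length trends removed by offsets, and each library left out. Gene lengths, snoRNA positions and 25-base words came from GENCODE 29, matched by symbol (18541 genes), and start sites from RefSeq.

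Every count, median and pooled share covers all 33 members, of which 4 are not reported here by name. Per-library values are given for the 6 lowest and 6 highest of all tested members, the 4 with most counts, the RPS27 pair and RACK1, except where a gene is not reported, and other members are named with their fold change. Members, lists and rules were chosen with earlier results of these data known. PCR reads without molecular identifiers are not independent molecules.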

Additional observations from a re-analysis of the deposited data

How the results depend on the processing

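Library size and small RNA content differed between the groups, and the scale set the sign of most members. With library totals alone 6 members were lower and 5 higher and the median was 0.13. On that scale 17 members changed sign, among them RPS27 to 0.25, FAU to 0.61, RPS3 to 0.21, RPS25 to 0.18, RPS2 to 0.40, RPS15 to 1.45, RPS16 to 0.65, RPS19 to 0.13, RPS9 to 0.68, RPS7 to 0.17, RPSA to 0.12, RPS3A to 0.0806, RPS6 to 0.32 and RPS4X to 1.29. With the transcript length trend removed 6 were lower and 2 higher (median -0.34), and 10 changed sign, among them RPS27 to 0.77, FAU to 0.0364, RPS15 to 1.59, RPS16 to 0.57, RPS19 to 0.21, RPS9 to 0.29 and RPS4X to 0.0203. With the coding length trend removed 11 were lower (median -0.86), and RPS27 and RPS15 were at 0.13 and 0.77. Leaving out the TMM factors rescales whole libraries, and the median of all tested genes moved from 0.10 to 1.63 with library totals alone. The sign changes on that scale are therefore not particular to the members named. What underlies the factors and the length trends was not tested.

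Members near 0 changed sign elsewhere as well. RPS24 was at -0.0808 with the stricter filter and at -0.0078 with small structured RNAs left out, and RPS15 was at 0.10 with no filter. Over fits without 1 library RPS24 ran from -0.14 to 0.15 and RPS15 from -0.26 to 0.26. The share of all counts turned from 1.24 to 0.59 times the pre-IP value with small structured RNAs left out of the total.

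Without 1 library the number lower ran from 17 (p-UPF1 IP replicate 3) to 25 (pre-IP replicate 7), none was higher, and the median ran from -1.56 to -1.29. The ratio of shares ran from 1.13 to 1.33, that of the small subunit part from 0.862 to 0.893, of the host part from 0.938 to 0.971 and of the head part from 0.792 to 0.859. The filter, tool and other scaling alternatives kept the count of lower members within 1.5 times of 23. Over all genes 880 were lower and 711 higher, against 156 and 4874 by library totals alone, 851 and 1101 with no filter, 857 and 377 with the transcript length trend removed, 722 and 341 with the coding length trend removed, and 518 and 273 without p-UPF1 IP replicate 3, 617 and 333 without replicate 6 and 596 and 312 without replicate 9. No paired analysis was run, since the groups share no replicate number. The numbers 1, 4, 7 and 3, 6, 9 could mark libraries prepared together, which the labels do not say, so p-values take the libraries as unpaired and a pairing of 1 with 3, 4 with 6 and 7 with 9 was not tested. Genes with few counts, such as RPS10 and RPS27L, limit what can be seen.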
